A study of Mus musculus with 9 samples.

Results

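The CCR2 monocyte chemokine axis was followed in the mouse omentum as 5 genes: the ligands Ccl2, Ccl7, Ccl8 and Ccl12 and their receptor Ccr2. They were taken by symbol, through their Ensembl identifiers, from a count table of 55359 genes, and all 5 were found and passed the filter on low counts. Bulk RNA sequencing covered 9 omenta of C57BL/6 mice, 7 to 10 weeks old, each given 500000 B16-OVA cells in the peritoneal cavity. B16-OVA is a melanoma line that carries ovalbumin, and the omentum, a sheet of abdominal fat, is where these cells settle. On day 6 the PBS group received saline, by a route the labels do not give. The IP and IV groups received T lymphocytes specific for ovalbumin (OT-I) that had been electroporated with IL-12 mRNA, into the peritoneal cavity or into a vein. Omenta were collected 18 h later. Each group held 3 mice, numbered in the labels as 1, 2 and 3 for PBS, as 2, 3 and 4 for IP, and as 1, 2 and 4 for IV. All 9 mice carried the tumour. T cells lacking the IL-12 mRNA were not given to any group, so the cells and the cytokine cannot be told apart.

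CCR2 is a G protein-coupled receptor on classical (Ly6C-high) monocytes, which need it to leave the bone marrow and to enter inflamed tissue. It is also found on some T cells, NK cells and dendritic cells. Its ligands belong to the monocyte chemoattractant protein family and are made by stromal cells, endothelium, tumour cells and macrophages in response to inflammatory cytokines. CCL2 is the ligand studied most, and CCL7 also binds CCR1 and CCR3. CCL12 is found in the mouse and not in humans, and mouse CCL8 is best known as a ligand of CCR8.

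The ligand genes lie together on chromosome 11, in the order Ccl2, Ccl7, Ccl11, Ccl12, Ccl8 and Ccl1, and Ccr2 lies on chromosome 9 next to Ccr3. The 250 bases before the start of Ccl8 and Ccl12 are shown because these neighbouring ligands moved differently between the IP and IV groups, as given further on. The sequences are RefSeq, build GRCm38.p6, plus strand, at chr11:82114935-82115184 for Ccl8 and chr11:82101595-82101844 for Ccl12. Capitals mark stretches of at least 8 bases found in both windows, a display chosen after reading them.

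Ccl8: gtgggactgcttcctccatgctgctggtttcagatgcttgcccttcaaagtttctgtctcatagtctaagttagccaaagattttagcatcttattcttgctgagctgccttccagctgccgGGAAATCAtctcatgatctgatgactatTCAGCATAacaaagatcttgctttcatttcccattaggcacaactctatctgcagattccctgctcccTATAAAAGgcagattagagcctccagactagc
Ccl12: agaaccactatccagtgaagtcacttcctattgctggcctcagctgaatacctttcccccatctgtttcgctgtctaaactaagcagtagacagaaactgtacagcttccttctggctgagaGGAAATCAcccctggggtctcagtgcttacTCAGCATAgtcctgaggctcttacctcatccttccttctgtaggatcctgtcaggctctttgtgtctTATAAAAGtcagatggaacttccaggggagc

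Over their whole length the windows had 161 identical bases in 283 aligned columns (56.9%). GGAAATCA began 128 bases before the start in both and was in 0.472% of 32851 RefSeq windows of the same length, on either strand. TCAGCATA began 100 and 98 bases before the start (0.21% of windows), and TATAAAAG, which holds the letters of a TATA box, 32 and 31 bases before it (1.06%). Motifs linked to inflammatory signals were searched on both strands: a kappaB-like GGANTTTCC (in 1.07% of all windows), GAS TTCNNNGAA (7.02%), ISRE-like GAAANNGAA (7.13%) and AP-1 TGANTCA (6.75%). None of these letters occurred in the Ccl8 and Ccl12 windows, and the Ccr2 window held 1 ISRE-like match, on the minus strand. RefSeq windows were matched for 3 of the 5 genes, without Ccl2 and Ccl7.

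Library totals ranged from 7379798 counts (IV 2) to 44626843 (PBS 3), and the smallest count of a ligand or of Ccr2 in any library was 40, for Ccl12 in PBS 1 and PBS 2. Apart from the rest were 3 libraries rich in transcripts of pancreatic acinar cells. Summed over 12 acinar markers, IP 4 had 18956 CPM, IV 1 had 25499 CPM and IV 2 had 4420 CPM. The sum was 197 and 253 CPM in IP 2 and IP 3, 13.3 to 20.8 CPM in PBS and 9.56 CPM in IV 4. CPM are read counts per 1e+06 counts of a library, scaled here by TMM factors. Results are given with all libraries and, as an alternative chosen after seeing the data, without these 3, which leaves IV 4 alone in its group. IP 2 and IP 3 stay above PBS and IV 4 in acinar markers there, so that alternative does not remove the acinar difference. The part of the 3 libraries in the results was otherwise not tested. The labelled tissue was checked by its own markers, and those of fat cells (411 to 1227 CPM) and of mesothelium (137 to 215 CPM) were present in every library.

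Of the 5 genes, 5 were higher in IP than in PBS, with a median log2 fold change of 4.37, and every IP library lay above every PBS library for all 5. For comparison, edgeR's quasi-likelihood test at an adjusted p under 0.05 called 18.7% of the 17123 genes tested higher in IP. Every IP library lay above every PBS library for 28.4% of all genes, and the median of all genes was 0.02. In IV against PBS, 5 of 5 were higher and without overlap, with a median of 2.21. Of all genes 10.4% were called higher, 16.5% had every IV library above every PBS library, and the median was 0.04. In IP against IV, 3 of 5 were higher in IP (Ccl2, Ccl7 and Ccl12) and without overlap, with a median of 1.50. Of all genes 5.93% were called higher, 17.9% had every IP library above every IV library, and the median was -0.02. The comparisons with PBS share the same control libraries, and IP against IV is the direct test of the difference between the routes. Without the 3 acinar-rich libraries edgeR called 5, 0 and 0 of the genes higher in the same order, beside 16%, 0% and 1.75% of the 18200 genes tested in that fit. At an unadjusted p under 0.05 it was 5, 5 and 3 of the genes, beside 21%, 12.3% and 8.96% of all genes.

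**Figure D1:**
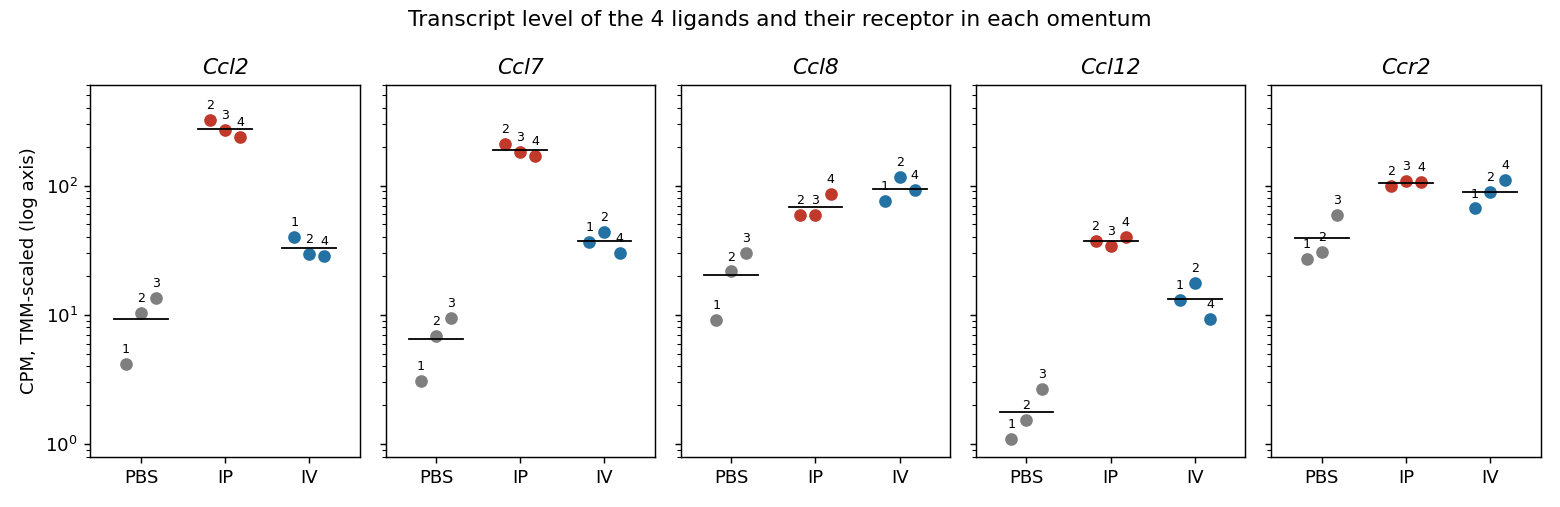
Transcript levels of the 5 genes in each omentum, in TMM-scaled CPM on a log axis. Points are single mice with their number and lines are group means: Ccl2, Ccl7 and Ccl12 form 3 separate levels, while IP and IV overlap for Ccl8 and Ccr2.

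Ccl2 (ENSMUSG00000035385) had 4.18, 10.3 and 13.5 CPM in PBS 1, PBS 2 and PBS 3. In IP 2, IP 3 and IP 4 it was 320, 271 and 236 CPM, and in IV 1, IV 2 and IV 4 39.9, 29.5 and 28.4 CPM. The groups did not overlap: PBS was lowest, IV in between and IP highest. The means were 9.31 ± 4.72 CPM in PBS, 276 ± 42.4 in IP and 32.6 ± 6.37 in IV (SD, n = 3). Ccl2 was 29.5-fold higher in IP than in PBS (log2 fold change 4.88 ± 0.38 SE, edgeR adjusted p = 2.45e-05) and 3.5-fold higher in IV than in PBS (1.81 ± 0.34, adjusted p = 0.00732). Between the routes it was 8.43-fold higher in IP (3.08 ± 0.35, adjusted p = 0.000824), the widest such gap among the 5 genes. In these whole-tissue samples more cells that make a transcript and more transcript per cell cannot be told apart, here and for the genes that follow. Without the 3 acinar-rich libraries the log2 fold change was 4.94 for IP against PBS (edgeR adjusted p = 0.000935), 1.61 for IV against PBS (adjusted p = 0.14) and 3.34 for IP against IV (adjusted p = 0.0509).

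Ccl7 (ENSMUSG00000035373), the neighbour of Ccl2, had 3.06, 6.83 and 9.45 CPM in PBS 1, PBS 2 and PBS 3. In IP 2, IP 3 and IP 4 it was 211, 182 and 170 CPM, and in IV 1, IV 2 and IV 4 36.8, 43.9 and 30.2 CPM. Again no groups overlapped, with IV between PBS and IP. It was 28.9-fold higher in IP than in PBS (log2 fold change 4.85 ± 0.36 SE, edgeR adjusted p = 2.39e-05), a rise that differed from that of Ccl2 by less than 1 SE. In IV it was 5.68-fold higher than in PBS (2.51 ± 0.33, adjusted p = 0.00208), and IP exceeded IV 5.09-fold (2.35 ± 0.32, adjusted p = 0.00171). Without the acinar-rich libraries the log2 fold changes were 4.88 (edgeR adjusted p = 0.00089), 2.22 (adjusted p = 0.0806) and 2.66 (adjusted p = 0.0688) for IP against PBS, IV against PBS and IP against IV.

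Ccl12 (ENSMUSG00000035352) had 1.09, 1.54 and 2.66 CPM in PBS 1, PBS 2 and PBS 3. It had 37.4, 34 and 40.1 CPM in IP 2, IP 3 and IP 4 and 13, 17.7 and 9.29 CPM in IV 1, IV 2 and IV 4. The order was that of Ccl2 and Ccl7, and no groups overlapped. Ccl12 was 20.7-fold higher in IP than in PBS (log2 fold change 4.37 ± 0.34 SE, edgeR adjusted p = 2.45e-05) and 7.3-fold higher in IV than in PBS (2.87 ± 0.33, adjusted p = 0.00182), its rise in IV being the highest of the 5. IP exceeded IV 2.84-fold (1.50 ± 0.30, adjusted p = 0.0106). Without the acinar-rich libraries the log2 fold changes were 4.27 (edgeR adjusted p = 0.000775), 2.37 (adjusted p = 0.0758) and 1.90 (adjusted p = 0.0849) in the same 3 comparisons.

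Ccl8 (ENSMUSG00000009185) followed another order. Its level was 9.2, 21.7 and 30.1 CPM in PBS 1, PBS 2 and PBS 3. In IP 2, IP 3 and IP 4 it was 59.5, 59.7 and 85.8 CPM, and in IV 1, IV 2 and IV 4 75.8, 116 and 92.6 CPM. Both treated groups lay above PBS, and they overlapped each other, since IP 4 was above IV 1. Ccl8 was 3.35-fold higher in IP than in PBS (log2 fold change 1.75 ± 0.36 SE, edgeR adjusted p = 0.0035) and 4.64-fold higher in IV than in PBS (2.21 ± 0.36, adjusted p = 0.00396). The IP level was 0.723 times the IV level, a difference that did not pass (-0.47 ± 0.35, edgeR adjusted p = 0.448). Its sign was the same under all 21 alternative fits, from -0.83 to -0.30. Those fits reuse the same mice, so the shared sign says nothing about the spread between mice. Without the acinar-rich libraries the log2 fold changes were 1.51 (edgeR adjusted p = 0.0381) for IP against PBS, 2.18 (adjusted p = 0.0825) for IV against PBS and -0.68 (adjusted p = 0.536) for IP against IV.

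Ccr2 (ENSMUSG00000049103), the receptor, had 27.1, 30.6 and 59.5 CPM in PBS 1, PBS 2 and PBS 3. In IP 2, IP 3 and IP 4 it was 99.3, 108 and 107 CPM, and in IV 1, IV 2 and IV 4 66.5, 89.1 and 111 CPM. The IP libraries lay close together and inside the range of IV, and PBS 3 was just below IV 1. Ccr2 was 2.68-fold higher in IP than in PBS (log2 fold change 1.42 ± 0.28 SE, edgeR adjusted p = 0.00291). That was the smallest estimate of the 5, near that of Ccl8 (1.75 ± 0.36). With the acinar level as a covariate their order was reversed (1.67 for Ccr2 and 1.65 for Ccl8). In IV Ccr2 was 2.27-fold higher than in PBS (1.18 ± 0.28, adjusted p = 0.0188), and the difference between the routes did not pass (0.24 ± 0.28, adjusted p = 0.649). The call for IV was lost when some single libraries were left out. The edgeR adjusted p was 0.0775 without PBS 1, 0.0853 without PBS 2, 0.0581 without IV 2 and 0.0517 without IV 4. With any 1 library left out the log2 fold change was 0.97 to 1.62. Without the acinar-rich libraries the log2 fold changes were 1.36 (edgeR adjusted p = 0.0218) for IP against PBS, 1.50 (adjusted p = 0.101) for IV against PBS and -0.14 (adjusted p = 0.887) for IP against IV. Of the 51-base stretches of the Ccr2 exons, 1.86% also occur in other genes on the same strand, and none of those of the ligands do.

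**Figure D2:**
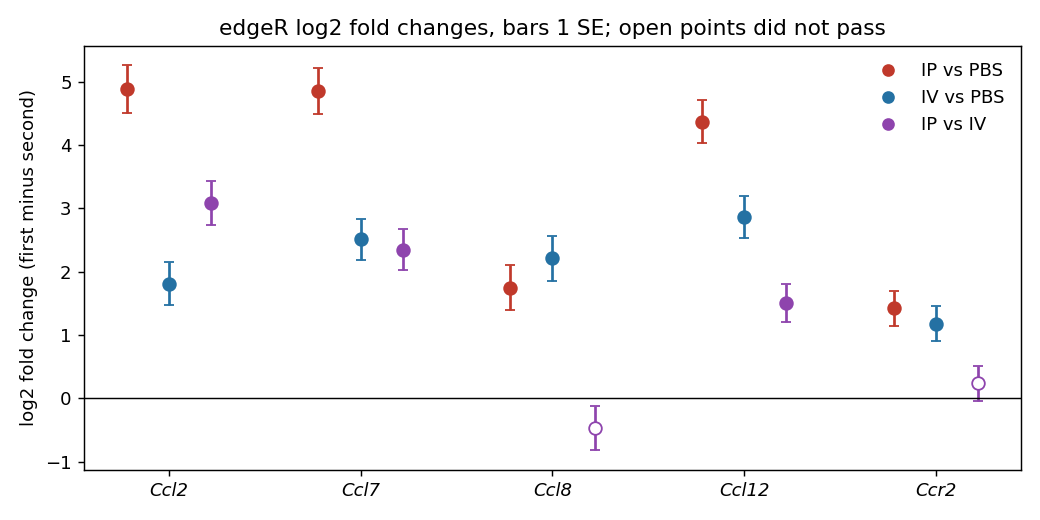
Log2 fold changes from edgeR (points) with 1 SE (bars) for each gene in IP against PBS, IV against PBS and IP against IV, where filled points have an adjusted p under 0.05. The ligands Ccl2, Ccl7 and Ccl12 lie well above 0 between the routes, and Ccl8 (-0.47) and Ccr2 (0.24) are open points near it.

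In all 5 genes the PBS mice differed among themselves more than the treated ones. The highest PBS library exceeded the lowest by 2.2-fold (Ccr2) to 3.27-fold (Ccl8), while the ratio was 1.09 to 1.44 in IP and 1.41 to 1.91 in IV. PBS 1 held the lowest and PBS 3 the highest level of all 5 genes. The 8 T cell markers lay in the same order, with 38.4, 70.2 and 92.9 CPM in PBS 1, PBS 2 and PBS 3. The summed level of the 12 classical monocyte markers (967, 571 and 1102 CPM) did not, but Fn1, the fibronectin gene, held most of it. Without Fn1 the other 11 summed to 206, 254 and 442 CPM, in the order of the 5 genes. The part of these cells in the spread was not tested.

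Per kilobase of exon the order of the 5 genes changed with treatment. The scale of these levels is CPM divided by the exon length of an older annotation (GENCODE M21). In PBS, Ccl8 led with 39.8 ± 20.6 CPM per kb (SD, n = 3), followed by Ccl2 (8.18 ± 4.14), Ccl7 (8.05 ± 4.01), Ccr2 (5.78 ± 2.63) and Ccl12 (3.28 ± 1.51). Of these only Ccl8 stood clear of its neighbour. In IP, Ccl2 (242 ± 37.2) and Ccl7 (234 ± 26.3) led with overlapping ranges, above Ccl8 (134 ± 29.5), Ccl12 (69.2 ± 5.69) and Ccr2 (15.5 ± 0.7), whose ranges did not overlap. In IV, Ccl8 led again with 185 ± 39.4, above Ccl7 (46.1 ± 8.55). Ccl2 (28.7 ± 5.6) overlapped Ccl12 (24.9 ± 7.89), with Ccr2 (13.1 ± 3.26) below them and clear of Ccl12.

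Added up, the 4 ligands reached 17.5, 40.4 and 55.7 CPM in PBS 1, PBS 2 and PBS 3, 628, 546 and 531 CPM in IP 2, IP 3 and IP 4, and 166, 207 and 161 CPM in IV 1, IV 2 and IV 4. The sum lay in the order PBS, IV, IP, with no overlap between groups. Melanoma markers moved the opposite way (26167 to 29212 CPM in PBS, 18683 to 24237 in IV and 13965 to 15739 in IP), and the part of the tumour share in the ligand levels was not tested. The share of Ccl8 did not follow the sum: it overlapped between PBS and IV and was lower in every IP library. Ccl8 made up 52.5% of the ligand counts in PBS 1 (Wilson 95% interval 48.6 to 56.3%), 9.49% in IP 2 (9.08 to 9.91%) and 57.7% in IV 4 (56.5 to 58.8%), intervals that cover counting error only. Over mice the Ccl8 share was 53.5 ± 0.851% in PBS, 12.2 ± 3.5% in IP and 53.2 ± 6.44% in IV (SD, n = 3). The Ccl2 share was 24.5 ± 0.87% in PBS, 48.3 ± 3.5% in IP and 18.7 ± 5.02% in IV. In the same order the Ccl7 share was 17.1 ± 0.29%, 32.9 ± 0.86% and 20.7 ± 1.75%. Its groups did not overlap and lay in the order of the sum, PBS, IV, IP. Ccl12 took 4.94 ± 1.22%, 6.58 ± 0.856% and 7.41 ± 1.45%, and its groups overlapped. These shares compare 1 ligand between libraries and not ligands with each other, since their transcripts differ in length.

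**Figure D3:**
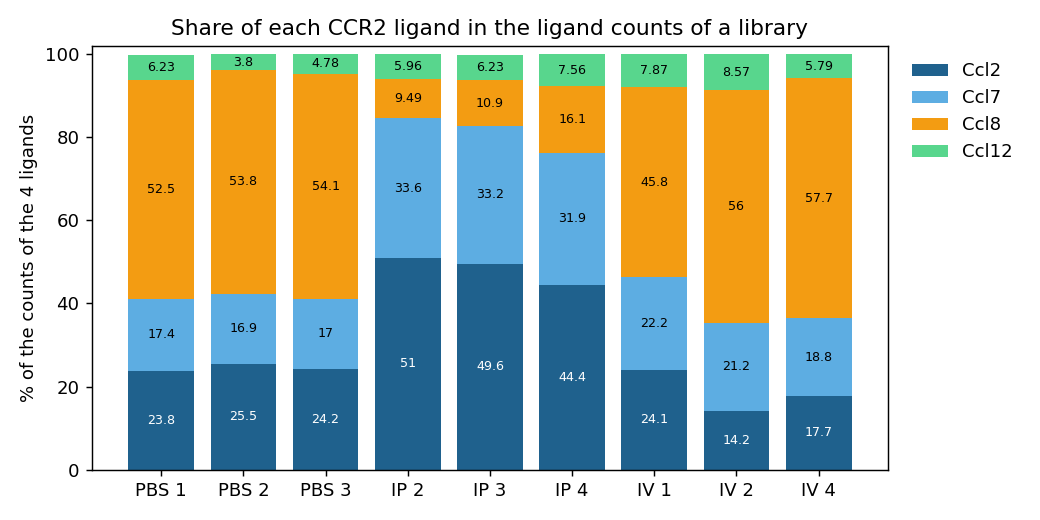
Share of each ligand in the summed counts of the 4 ligands, in percent, with 1 bar for each library. Ccl8 is the tallest segment in all PBS and IV libraries (45.8 to 57.7%) and falls to 9.49 to 16.1% in IP, where Ccl2 takes 44.4 to 51%.

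The ratio of 2 transcripts within a library needs no scaling factor, and it was compared over the 3 groups for all 10 pairs of the 5 genes, as log2 of (CPM + 0.5). An exact permutation test over the 1680 assignments of the libraries (smallest possible p = 0.00357) passed for 10 of 10 pairs after adjustment over the pairs. The 10 ratios come from the same 5 genes, so they are not separate results. How often pairs of other genes pass was not computed, so the count cannot be read as a trait of these genes. The adjusted exact p was 0.0179 for 8 pairs and 0.0286 for Ccl7 to Ccl12 and Ccl8 to Ccr2. The Ccl2 to Ccl8 ratio was -1.05, -1.04 and -1.13 in PBS 1, PBS 2 and PBS 3. In IP 2, IP 3 and IP 4 it was 2.42, 2.17 and 1.45, and in IV 1, IV 2 and IV 4 -0.92, -1.96 and -1.69. IP stood above both other groups, which overlapped (exact permutation p = 0.0143). The Ccl2 to Ccl7 ratio set IV apart instead: it was 0.48 ± 0.08 in PBS and 0.55 ± 0.07 in IP, which overlapped, and -0.18 ± 0.35 in IV (exact permutation p = 0.0107). Measured against the receptor, Ccl7 was at -2.54 ± 0.44 in PBS, -1.24 ± 0.54 in IV and 0.83 ± 0.22 in IP. Ccl12 was at -4.10 ± 0.16, -2.70 ± 0.69 and -1.48 ± 0.14 in the same order. In both, no groups overlapped (exact permutation p = 0.00357 each). With any 1 library left out, 7 to 10 of the 10 pairs still passed. The pairs that lost the call in at least 1 of these fits were Ccl2 to Ccl7 (adjusted exact p up to 0.067), Ccl7 to Ccl12 (up to 0.0786) and Ccl8 to Ccr2 (up to 0.125).

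Ccr2 was set beside the markers of cells that can carry it. The classical monocyte markers summed to 571 to 1102 CPM in PBS, 2384 to 2758 in IP and 1284 to 1735 in IV. Of the list, edgeR called 10 of 12 higher in IP than in PBS, 7 of 12 higher in IV than in PBS and 2 of 12 higher in IP than in IV, with none lower. Of all genes it called 18.7%, 10.4% and 5.93% higher in the same order. Ly6c2, the gene of a surface protein used to mark these monocytes, had 7.89, 22.4 and 31.7 CPM in the PBS libraries. It had 233, 209 and 215 CPM in the IP and 121, 164 and 112 CPM in the IV libraries. F13a1, also on the list, did not pass against PBS in IP (0.12 ± 0.31, edgeR adjusted p = 0.809) or in IV (-0.67 ± 0.31, adjusted p = 0.171). No marker of this list was at 0 in any library. Ccr2 relative to these markers, as a log2 ratio, was -4.51 ± 0.54 in PBS, -4.62 ± 0.13 in IP and -4.15 ± 0.58 in IV, which overlapped (exact permutation p = 0.521, adjusted p = 0.701 over 5 marker lists). The overlap of IP with PBS rested on Fn1, which also comes from stromal cells and passed in no comparison. Without it, a choice made after seeing the data and so given with no test, the ratio was -2.94 ± 0.08 in PBS, -3.98 ± 0.12 in IP and -3.55 ± 0.54 in IV. Each IP library then lay below each PBS library. IV still overlapped PBS through IV 4 (-2.92) and IP through IV 1 (-3.91). T cell markers summed to 38.4 to 92.9 CPM in PBS, 210 to 242 in IP and 93.4 to 252 in IV. The ratio of Ccr2 to them also overlapped between groups (exact permutation p = 0.561), as did the ratios to dendritic cell (0.979) and NK cell markers (0.104) between treated and PBS libraries. Dendritic cell markers summed to 21.4 to 42.4 CPM in PBS, 79.6 to 95.2 in IP and 49.7 to 101 in IV, and NK cell markers to 14.4 to 49, 98.6 to 103 and 70.6 to 204. These sums rose through some of their genes: in IP against PBS edgeR called 7 of 8 T cell markers higher, 3 of 8 dendritic cell markers higher and 1 lower, and 2 of 6 NK cell markers higher. For all genes the shares called there were 18.7% higher and 14.2% lower. The list medians were 1.70, 0.12 and -0.10 on the log2 scale. The part of these cells in the level of Ccr2 was not tested.

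Of 12 resident macrophage markers, 6 fell and 0 rose in IP against PBS, where edgeR called 14.2% of all genes lower. In IV against PBS 2 rose and 0 fell, where 10.4% of all genes were called higher. The summed level was 270 to 478 CPM in PBS, 308 to 347 in IP and 456 to 513 in IV. Among them Cd163, a scavenger receptor, had 9.12, 5.11 and 19.8 CPM in the PBS and 1.78, 2.07 and 3.1 CPM in the IP libraries (log2 fold change -2.29 ± 0.51, edgeR adjusted p = 0.00558). The log2 ratio of Ccr2 to this list was -3.34 ± 0.50 in PBS, -2.50 ± 0.45 in IV and -1.63 ± 0.06 in IP, with no overlap between groups (exact permutation p = 0.00357, adjusted p = 0.0179). PBS and IV were only just apart, with PBS 3 at -2.99 and IV 1 at -2.93. Mertk alone held 132 of the 270 CPM of the list in PBS 2, and the ratio without Mertk was not computed. The adjusted exact p rose to 0.0536 without PBS 1, 0.107 without IP 2 or IP 4 and 0.125 without IP 3.

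**Figure D4:**
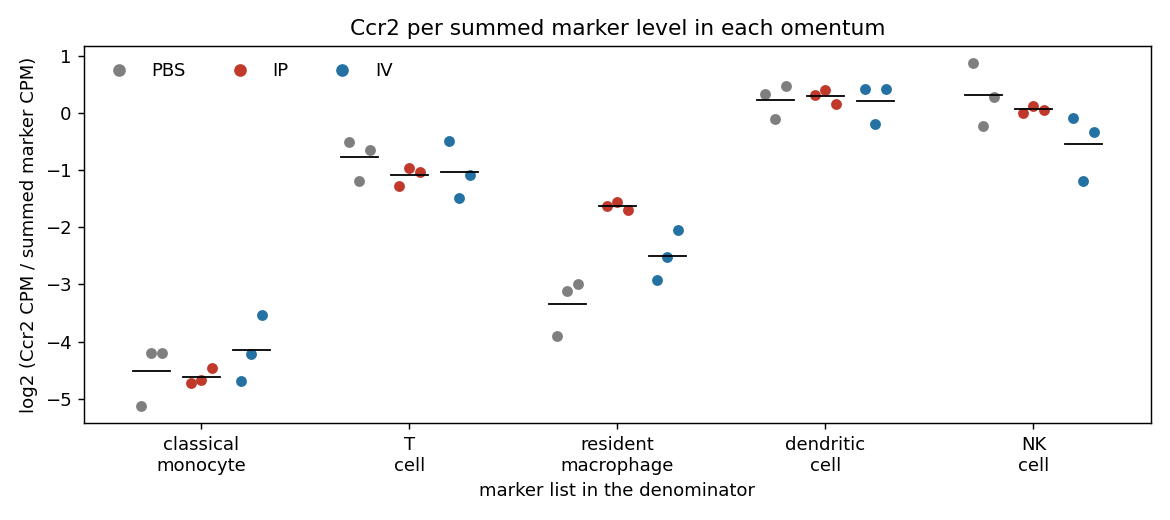
Log2 ratio of Ccr2 CPM to the summed CPM of 5 marker lists, with 1 point for each mouse and lines at group means. The resident macrophage list separates the groups (-3.34 in PBS, -2.50 in IV and -1.63 in IP), though PBS 3 (-2.99) and IV 1 (-2.93) nearly meet. The T cell and dendritic cell lists leave the groups overlapping, as does the classical monocyte list with Fn1 in it.

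Among the signals known to induce these ligands, 15 of 17 genes rose in IP and 7 in IV against PBS, and 8 were higher in IP than in IV, with none lower in any comparison (medians 1.77, 0.90 and 0.78). The shares of all genes called higher in these comparisons were 18.7%, 10.4% and 5.93%, here and for the lists that follow. Ifng, the interferon-gamma gene, had 826, 748 and 571 CPM in the IP libraries, 11.3, 16.3 and 12.4 CPM in the IV libraries and at most 1.32 CPM in PBS. Its log2 fold change was 9.74 ± 0.73 in IP against PBS (edgeR adjusted p = 2.73e-05) and 3.98 ± 0.60 in IV against PBS (adjusted p = 0.00362). Between the routes it was 5.76 ± 0.61 (adjusted p = 0.000824). Il6, a cytokine of acute inflammation, was higher in IP than in IV (3.83 ± 0.58, adjusted p = 0.00295) at 9.35, 7.75 and 6.24 CPM in IP. Myd88, the adaptor of Toll-like and interleukin-1 receptors, rose in IP (2.19 ± 0.18, adjusted p = 2.69e-05) and in IV (1.41 ± 0.18, adjusted p = 0.0019). Without the 3 acinar-rich libraries edgeR called none of the genes of this and the following lists in IV against PBS. In IP against IV it then called 4 of these 17 genes higher, among them Ifng (adjusted p = 0.0319) and Il6 (adjusted p = 0.033).

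Other CC chemokines, of which 14 of 16 were tested, rose in 10 cases in IP and 5 in IV against PBS, and 8 were higher in IP than in IV, with none lower (medians 2.58, 1.04 and 1.47). Ccl11, an eosinophil attractant between Ccl7 and Ccl12 on the chromosome, lay in the order PBS, IV, IP with 3.28, 4.91 and 5.16 CPM in PBS, 15.9, 8.4 and 7.97 CPM in IV and 37.5, 40.2 and 47.7 CPM in IP. It rose against PBS in IP (3.23 ± 0.29, edgeR adjusted p = 3.53e-05) and in IV (1.28 ± 0.28, adjusted p = 0.0131). Ccl3, a ligand of CCR1, had 66.9, 62.2 and 55 CPM in IP and 2.91 to 3.13 CPM in IV, a log2 fold change of 4.35 ± 0.50 between the routes (edgeR adjusted p = 0.000824, and 0.0666 without the acinar-rich libraries). Ccl5, a T cell product, rose in IV (1.11 ± 0.23, adjusted p = 0.0102). Ccl24, another eosinophil attractant, rose in IP (3.81 ± 0.35, adjusted p = 3.95e-05), and Ccl17 was higher in IP than in IV (3.32 ± 0.39, adjusted p = 0.000915). Without the acinar-rich libraries 4 of 14 were higher in IP than in IV.

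Of 7 other chemokine receptors of monocytes and their partners, 4 rose and 1 fell in IP against PBS, and 3 rose in IV. For all genes the shares were 18.7% higher and 14.2% lower in IP, and 10.4% higher in IV. Ccr1, which lies near Ccr2 on chromosome 9, had 11.9, 12.7 and 18.7 CPM in PBS, 32.4, 23.9 and 25.3 CPM in IV and 138, 128 and 116 CPM in IP. It passed between the routes, which Ccr2 did not (2.22 ± 0.19, edgeR adjusted p = 0.000223). Neutrophils also carry Ccr1, and their 8 markers summed to 11.7 to 25.4 CPM in PBS, 146 to 185 in IP and 31.4 to 190 in IV, a part that was not tested. Ccr7, which guides cells to lymph nodes, rose in IV (1.83 ± 0.37, adjusted p = 0.00925). Cx3cr1, the receptor of non-classical monocytes, had 0.724, 0.55 and 0.303 CPM in IP and 0.764, 2.93 and 3.61 CPM in IV. It was lower in IP than in IV (-2.19 ± 0.56, adjusted p = 0.0327). Among 4 scavengers, which bind chemokines without classical signalling, Ccrl2 rose in IP (3.81 ± 0.33, adjusted p = 3.2e-05) and in IV (2.27 ± 0.32, adjusted p = 0.00251). Ackr1, the chemokine carrier of venules, also rose in both (1.48 ± 0.29, adjusted p = 0.00307, and 1.29 ± 0.30, adjusted p = 0.0174). Ackr4 was lower in IP than in IV (-2.59 ± 0.64, adjusted p = 0.0283, and 0.191 without the acinar-rich libraries) at under 1 CPM in every library.

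Downstream of the receptor, 8 of 16 signalling genes rose in IP and 5 rose and 1 fell in IV against PBS (medians 0.54 and 0.33). Of all 17123 genes tested, edgeR called 18.7% higher in IP, and 10.4% higher and 969 genes lower in IV. The kinase genes Ptk2b (1.87 ± 0.26, edgeR adjusted p = 0.000358) and Jak2 (1.09 ± 0.15, adjusted p = 0.00031) had the smallest p in IP. In IV it was Ptk2b (1.30 ± 0.26, adjusted p = 0.00937) and the GTPase gene Rac2 (1.68 ± 0.24, adjusted p = 0.0028). Plcb3, a phospholipase gene, was the 1 gene of 16 that passed between the routes (0.40 ± 0.11, adjusted p = 0.0434), where 5.93% of all genes were called higher. It missed the threshold when libraries were scaled by size factors (adjusted p = 0.0528) or totals (0.185), and without the acinar-rich libraries it was 0.20 (adjusted p = 0.471). Of 6 genes for growth factors of monocytes and their receptors, 5 rose in IP and 4 in IV. The smallest p were those of the receptor chains Csf2rb (2.22 ± 0.26, adjusted p = 0.000135, and 1.46 ± 0.26, adjusted p = 0.00543) and Csf2ra (1.85 ± 0.25, adjusted p = 0.00026, and 1.09 ± 0.24, adjusted p = 0.015). Csf1, the macrophage growth factor, was higher in IP than in IV (0.86 ± 0.22, adjusted p = 0.0356), a call lost when libraries were scaled by their totals (adjusted p = 0.092) and without the acinar-rich libraries (adjusted p = 0.401). Of 12 adhesion genes used on the way out of the blood, 7 rose in IP and 6 in IV. Icam1 rose in both (2.33 ± 0.33, adjusted p = 0.00042, and 1.65 ± 0.33, adjusted p = 0.00933), and Selplg, the gene of a selectin ligand, in IV (1.21 ± 0.22, adjusted p = 0.00683). The integrin genes Itgb2 (1.38 ± 0.25, adjusted p = 0.00624) and Itgam (1.15 ± 0.30, adjusted p = 0.0358) were higher in IP than in IV. Without the acinar-rich libraries Itgb2 lost the call (adjusted p = 0.162) and Itgam was at an adjusted p of 0.0499.

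The genes most like each of the 5 were found by Pearson's r of log2 CPM over the 9 libraries among 11004 genes, as a description, since the 9 libraries fall into 3 groups and all genes share them. Ccl2 was followed most closely by Plin2, a lipid droplet protein gene (r = 0.999), Ptafr (0.997) and Ctsb (0.996). Nearest to Ccl7 were Bcl2a1b (0.998), Ripk2 (0.997) and Bcl3 (0.997), and nearest to Ccl12 were Casp4 (0.997), Daxx (0.996) and Arid5a (0.995). The 3 nearest to Ccl8 were all genes of antigen presentation on MHC class II: H2-Aa (0.993), H2-Eb1 (0.990) and Cd74 (0.989). H2-Aa had 91.3, 259 and 293 CPM in PBS, 750, 649 and 788 in IP and 849, 1305 and 1040 in IV. Ccr2 was nearest to Gbp9 (0.992), Zc3h12d (0.991) and Slc8a1 (0.989). By Spearman's rho, 1, 2, 0, 1 and 0 of the 3 genes stayed among the most alike of Ccl2, Ccl7, Ccl8, Ccl12 and Ccr2.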

How the data were processed

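Poly(A) RNA libraries were made with a directional kit and read in pairs, per the labels. STAR 2.7.9, featureCounts, limma and the build mm39 are named in the submitters' processing notes. Neither the strand setting nor the annotation release is named in those notes. The deposited table of whole-number counts was used as it stands. The authors' log2 CPM of 18833 genes, which matched values recomputed from library totals to within 5e-14, served as an alternative. Symbols came from GENCODE M21 (52083 of 55359 identifiers matched). Since that build differs from mm39, no coordinates are printed other than the GRCm38.p6 positions of the Ccl8 and Ccl12 windows.

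Groups and mouse numbers follow the titles. The descriptions give the IP mice and 1 IV mouse another number. In edgeR 4.0.16 (R 4.3.3), filterByExpr kept 17123 genes. The main model was a robust quasi-likelihood fit of the 9 libraries together, with TMM scaling and no covariate. Tests were two-sided and adjusted by Benjamini and Hochberg over all genes tested. Fold changes are log2, first group minus second, with SE as the absolute value divided by the square root of F. Scaled by library totals, the median of all genes shifted by -0.17 in IP against PBS, and the calls were 2466 higher and 3561 lower in place of 3197 and 2429. In IP against IV they were 720 and 1038 in place of 1015 and 765, and in IV against PBS 1446 and 1200 in place of 1784 and 969. No call of the 5 genes changed with this scaling.

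The members, the gene lists and the tests were chosen with earlier results of these data known. Named from each pathway list are up to 2 called genes with the smallest p in each comparison, and for each of the 5 genes the 3 most alike with a mean of at least 5 CPM. Marker genes are named where they check a label or move with a result. A few genes under this rule are not reported here but still count in their lists. Alternatives were DESeq2 1.42.0 (size factors, Wald test), limma 3.58.1 (voom, and on the deposited log2 values), other filters, fits of 2 groups, a block for the mouse number, leaving out single libraries, thinned counts and, chosen after seeing the data, 2 acinar settings and the classical monocyte markers without Fn1. The scripts were tested on simulated counts.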

Additional observations from a re-analysis of the deposited data

Results flagged for a closer look

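The effects of the 2 routes differed for 20 genes, counting the ligands, the named pathway genes and Cd163, by edgeR's test of IP against IV over all genes. Pathway genes were named by their small p, in part in this comparison, so the count follows from that choice. Called list genes that were not named are left out. Of all 17123 genes tested, edgeR called 1015 higher and 765 lower in IP than in IV. Among the ligands the difference was 3.08 on the log2 scale for Ccl2 (adjusted p = 0.000824), 2.35 for Ccl7 (adjusted p = 0.00171) and 1.50 for Ccl12 (adjusted p = 0.0106), each higher in 3 of 3 IP mice than in any IV mouse. Other chemokine genes were Ccl3 (4.35), Ccl5 (1.15), Ccl11 (1.95), Ccl17 (3.32) and Ccl24 (2.85), and receptor and scavenger genes were Ccr1 (2.22), Ccrl2 (1.54), Cx3cr1 (-2.19) and Ackr4 (-2.59). Cytokine, signalling, adhesion and macrophage genes were Ifng (5.76), Il6 (3.83), Csf1 (0.86), Plcb3 (0.40), Myd88 (0.78), Itgb2 (1.38), Itgam (1.15) and Cd163 (-2.23). Without the 3 acinar-rich libraries 8 of the 20 were still called by edgeR: Ccl11, Ccl17, Ccl24, Ccr1, Cx3cr1, Ifng, Il6 and Itgam (adjusted p from 0.00628 for Ccl24 to 0.0499 for Itgam). The other 12, the 3 ligands among them, kept their direction with an adjusted p from 0.0509 for Ccl2 to 0.471 for Plcb3.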

How the results depend on the processing

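Each of the 5 genes was refitted under 21 alternatives. In IP against PBS all 5 kept the call except Ccl8 with no filter (1.67, edgeR adjusted p = 0.0551), and leaving out 1 library gave 4.53 to 5.26 for Ccl2 and 1.39 to 2.15 for Ccl8. In IV against PBS, 3 of 5 were called with no filter, where Ccl2 was 1.76 (adjusted p = 0.0638) and Ccr2 1.13 (adjusted p = 0.109), and the fit of only those 2 groups left Ccr2 at 1.19 (adjusted p = 0.0565). With 1 library left out Ccr2 was 0.97 to 1.62 there, and 4 to 5 of the genes were called. Without the 3 acinar-rich libraries, more genes tested (18200) and fewer samples, edgeR called 0 genes higher and 0 lower in IV against PBS, with 3691 at an unadjusted p under 0.05. The 5 genes then had 1.61 (Ccl2), 2.22 (Ccl7), 2.18 (Ccl8), 2.37 (Ccl12) and 1.50 (Ccr2), so 0 of 5 were called. In IP against IV they had 3.34 (Ccl2), 2.66 (Ccl7) and 1.90 (Ccl12), 0 of 5 called, and Ccr2 reversed to -0.14. The fit with the mouse number as a replicate block kept 5, 5 and 3 calls and reversed Ccr2 in IP against IV to -0.04 (adjusted p = 0.956). The labels do not say that mice of equal number are related, so the numbers were not taken as pairs. Between groups, the deviations of same-numbered mice correlated from -0.63 to 0.23 and those of mice with other numbers from -0.41 to 0.53.

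Counts over all genes moved more, and the cause was not tested. For IP against PBS, 1602 to 2947 genes were lower with 1 library left out, the lowest without PBS 1 and without IP 2. For IV against PBS, genes called higher were 935 in the fit of 2 groups, 1047 with the acinar level as a covariate and 770 (without PBS 1) to 2332 with 1 library left out. Genes called lower were 1766 by DESeq2's Wald test, 275 in the fit of 2 groups, 571 with the replicate block, 333 with the acinar covariate and 210 (without PBS 1) to 2248 (without IV 4). For IP against IV, genes called higher were 626 with the replicate block, 319 without the acinar-rich libraries and 435 (without IP 2) to 1709 (without IV 4). Genes called lower were 1251 by DESeq2's Wald test, 508 with the block, 279 without the acinar-rich libraries and 238 (without IP 2) to 1164 (without IV 4). Of the 5 ratios of Ccr2 to marker lists, 0 to 1 passed with 1 library left out. Of the values for named pathway genes under the alternatives, 762 kept their call and 76 lost it, and of the counts per pathway list 747 stayed within 1.5 times and 135 did not. IV 2, the shallowest library, and 3 mice a group limit the precision, and an exact rank test of 3 against 3 cannot go below p = 0.10.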

Other observations

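Ccl1, the gene next to Ccl8 and named here after its values were seen, was near the limit of detection. It had 0, 0.0768 and 0.264 CPM in PBS 1, PBS 2 and PBS 3, 1.28, 0.847 and 0.708 CPM in IP 2, IP 3 and IP 4, and 0.109, 0.8 and 0.205 CPM in IV 1, IV 2 and IV 4, and it was higher in IP than in PBS (log2 fold change 2.89 ± 0.87, edgeR adjusted p = 0.0265). Ccr3, which lies between Ccr1 and Ccr2 and was also chosen after seeing its values, had 0.659 and 1.1 CPM in IP 2 and IP 3 and 6.13 CPM in IP 4, so that 1 mouse carried most of the IP level.

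Ccl19 and Ccl21a, ligands of CCR7 that were likewise picked after their values were seen, were called in IV and not in IP. Ccl19 had 2.66, 7.87 and 1.99 CPM in IV 1, IV 2 and IV 4 against 0.191 to 0.96 CPM in PBS (2.75 ± 0.63, edgeR adjusted p = 0.016). Ccl21a had 5.75, 6.94 and 2.19 CPM in IV against 0.854 to 1.5 CPM in PBS (2.07 ± 0.55, adjusted p = 0.0287). Between the routes neither passed (Ccl19 -1.80 ± 0.60, adjusted p = 0.0852, and Ccl21a -1.08 ± 0.53, adjusted p = 0.235). The B cell markers moved with them, with 118 to 432 CPM in IV, 51 to 60.3 in PBS and 32.4 to 58.4 in IP, and their part was not tested.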
